A study of Mus musculus with 17 samples.

Results

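The fetal cardiac gene program was followed through 10 genes, *Nppa*, *Nppb*, *Myh6*, *Myh7*, *Acta1*, *Actc1*, *Acta2*, *Tnni1*, *Myl4* and *Myl7*, which were picked by symbol from the 56748 genes of the deposited count table. RNA was taken from the hearts of mice aged 12 to 16 months, with 1 library per heart. The 9 hMut hearts came from *Polg* iMut/iMut mice that carry +/Ckmm-cre, in which a Cre recombinase driven by the promoter of muscle creatine kinase, active in heart and skeletal muscle, removes a floxed wild-type *Polg* sequence so that a proofreading-deficient mtDNA polymerase is made. The 8 Ctrl hearts are labelled as controls, and their genotype and the sex and exact age of each mouse are not given in the sources used here. Both groups were untreated. Libraries held 32915159 to 46486964 counts, of which mtDNA-encoded genes took 23.5 to 30.9% in Ctrl and 15.9 to 23.0% in hMut. *Polg* itself, the targeted gene, lay between 27.1 and 47.2 CPM (counts per 1000000 library counts, TMM-scaled) in Ctrl and between 47.0 and 65.1 CPM in hMut (log2 fold change 0.74, SE 0.10, edgeR adjusted p = 0.000448). These counts cannot separate the mutant from the wild-type transcript and the ranges overlap, so they do not check the label of a heart.

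Heart muscle before birth uses other isoforms of its contractile proteins than adult ventricle does, and adult ventricle can take up several of them again under load or injury. In the mouse the slow myosin heavy chain *Myh7* gives way to the fast *Myh6* around birth, and the skeletal actin *Acta1* stays behind the cardiac actin *Actc1*. The natriuretic peptides encoded by *Nppa* (ANP) and *Nppb* (BNP) are secreted by heart muscle, promote salt and water loss and relax vessels, and are widely used readouts of a stretched ventricle. *Tnni1*, *Myl4* and *Myl7* encode the slow skeletal troponin I and the atrial myosin light chains, and *Acta2* encodes the smooth muscle actin, which the embryonic heart also makes.

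The sequences just upstream of the genes are shown for the pair of sarcomeric actins, for the peptide pair, and for *Myl7*, which holds the same kinds of motif but was at the limit of detection. Each is the 150 bases before the RefSeq transcription start, 5′ to 3′ on the gene's strand, and was located in GRCm39 by an exact match. The RefSeq promoter table (build GRCm38.p6) held an entry for each of the 10 genes. Capitals mark a CArG box, the binding motif of serum response factor (CCWWWWWWGG, where W is A or T), an MCAT element, the motif of TEAD factors (CATTCC), or a GATA motif (AGATAA, with T allowed in the first and G in the last place), each on either strand.
Acta1, chr8:124621515-124621664, minus strand: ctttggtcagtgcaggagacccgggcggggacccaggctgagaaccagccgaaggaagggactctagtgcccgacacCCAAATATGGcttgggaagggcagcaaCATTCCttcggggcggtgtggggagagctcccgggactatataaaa
Actc1, chr2:113883357-113883506, minus strand: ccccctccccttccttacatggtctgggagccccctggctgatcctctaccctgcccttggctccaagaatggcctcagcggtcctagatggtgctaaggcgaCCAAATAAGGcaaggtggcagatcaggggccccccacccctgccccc
Nppa, chr4:148085029-148085178, plus strand: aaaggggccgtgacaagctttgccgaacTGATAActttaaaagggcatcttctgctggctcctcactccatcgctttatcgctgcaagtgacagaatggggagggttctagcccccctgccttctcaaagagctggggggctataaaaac
Nppb, chr4:148070207-148070356, plus strand: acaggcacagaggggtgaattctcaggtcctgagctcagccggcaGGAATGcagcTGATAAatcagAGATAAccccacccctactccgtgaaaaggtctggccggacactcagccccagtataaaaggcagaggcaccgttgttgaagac
Myl7, chr11:5848783-5848932, minus strand: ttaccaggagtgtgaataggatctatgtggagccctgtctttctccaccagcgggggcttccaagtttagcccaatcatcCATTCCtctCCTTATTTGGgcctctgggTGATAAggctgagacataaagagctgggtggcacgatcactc

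*Acta1* and *Actc1* both held a CArG box close to the start, 73 and 47 bases before it, and *Acta1* also held an MCAT element 46 bases before it. *Nppb* held an MCAT element and a pair of GATA motifs between 105 and 84 bases before its start, and *Nppa* held a single GATA motif 122 bases before its start. *Myl7* held all 3 kinds. In windows of the full table entry (250 bases before to 50 after the start), a CArG box occurred in 1.63%, an MCAT element in 14.7% and a GATA motif in 29.8% of 32851 RefSeq promoters. Further upstream or in the other members, *Myh6* held a GATA motif and an MCAT element, *Acta2* and 1 of the *Myh7* starts held an MCAT element, and *Myl4* and *Tnni1* held none of these letters in the window. The *Actc1* window, and the *Nppb* window from 148070245 on with its 3 motifs, lie within the gene spans given by the count table, because those spans begin further upstream than the RefSeq starts.

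The members differed in level by orders of magnitude in Ctrl hearts. In CPM per kb of listed gene length, means ± SD over the 8 Ctrl hearts were 6103 ± 541 for *Actc1*, 2218 ± 197 for *Myh6*, 210 ± 101 for *Nppb*, 178 ± 43.5 for *Acta1*, 125 ± 51.8 for *Nppa*, 46.6 ± 12.0 for *Myh7*, 37.9 ± 18.1 for *Acta2* and 0.326 ± 0.0933 for *Myl4*. At the listed lengths, *Actc1* exceeded *Myh6*, and *Myh6* exceeded *Nppb*, in 8 of 8 Ctrl hearts, as did *Nppa* over *Myh7* and *Acta2* over *Myl4*. The neighbours *Nppb* and *Acta1* (5 of 8 hearts), *Acta1* and *Nppa* (6 of 8) and *Myh7* and *Acta2* (6 of 8) overlapped, so their order was within the spread. *Myl7* and *Tnni1* had 0 to 9 and 0 to 13 counts per Ctrl library. With those 2 below the filter on low counts, 8 of the 10 members were tested. The lengths are those of the count table. For *Myl4* (4637), *Tnni1* (3600) and *Myh7* (8616) they are longer than the reference transcripts (943, 1105 and 6135 bases). For *Actc1* (1618) and *Acta2* (2196) they are shorter than the reference transcripts (3645 and 2788 bases). Levels per kb, their order and the level of a ratio of 2 genes therefore depend on these lengths. Differences in log2 ratio between the groups do not.

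Between hMut and Ctrl, the skeletal actin *Acta1* rose, and it was the only member past an adjusted p of 0.05 in the edgeR quasi-likelihood test. *Nppb*, *Nppa* and *Acta2* were higher and *Myh6* was lower at an unadjusted p under 0.05 without passing the adjusted threshold. *Myh7*, *Myl4* and *Actc1* did not pass at either level. Past the adjusted threshold lay 1 member upward and 0 downward of the 8 tested, beside 3.48% of all 16195 tested genes upward and 1.14% downward. At an unadjusted p under 0.05 it was 4 members upward and 1 downward, beside 14.5% and 11.3% of all genes. The median log2 fold change was 0.53 over the 8 members and 0.0023 over all tested genes. DESeq2 and limma-voom with sample weights both called *Acta1* and *Nppb* higher and *Myh6* lower, beside 6.49% upward and 3.3% downward of all genes with an adjusted p in DESeq2, and 7.26% and 5.59% in limma-voom.

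**Figure D1:**
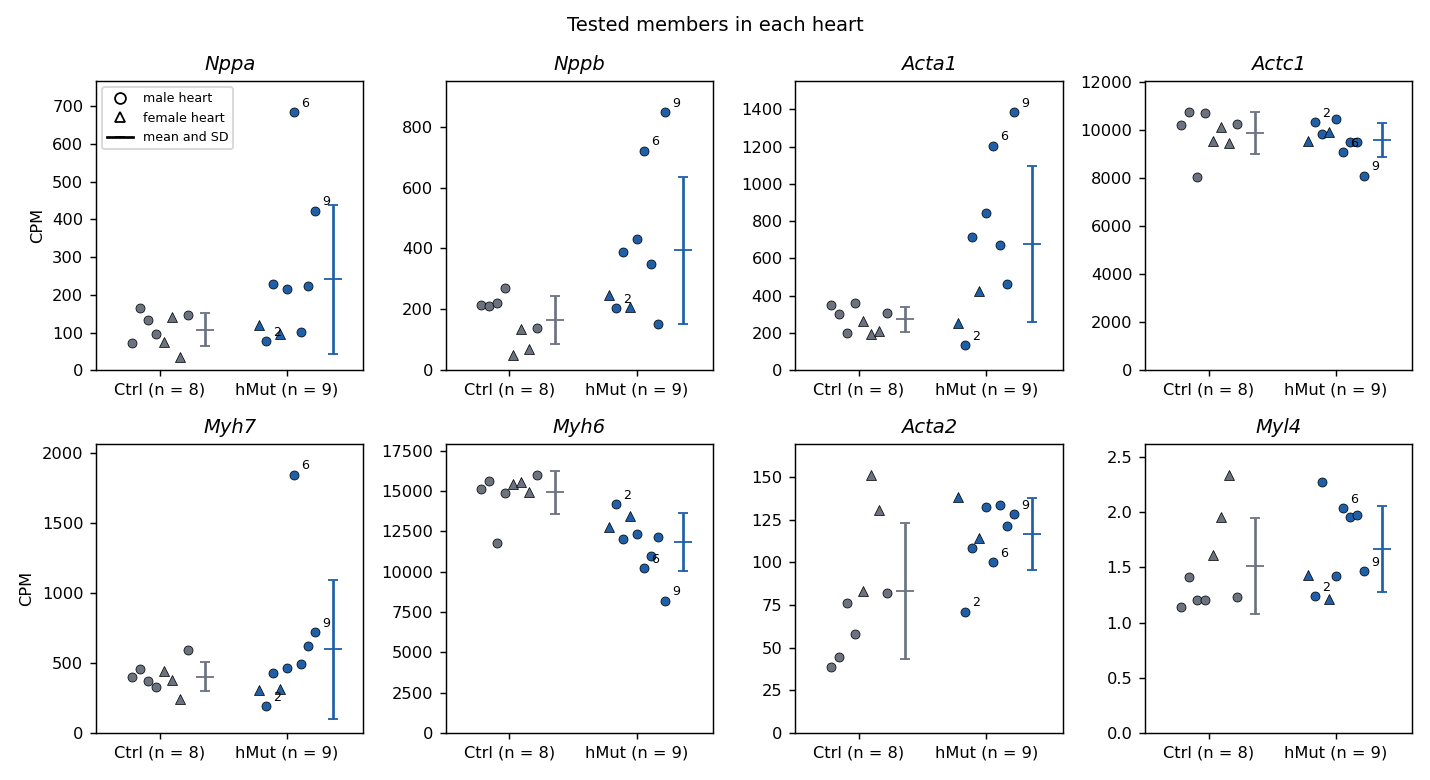
CPM (counts per 1000000 library counts, TMM-scaled) of the 8 tested members in each heart, Ctrl in grey (n = 8) and hMut in blue (n = 9), circles for male and triangles for female hearts as read from the counts, with the mean and SD at the right of each group. Points for hMut 2, 6 and 9 are numbered; *Acta1* lies above all Ctrl hearts in 7 of 9 hMut hearts, and *Actc1* overlaps in all of them.

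*Acta1* (ENSMUSG00000031972, chromosome 8, 124618508 to 124621490, minus strand) encodes skeletal α-actin, the sarcomeric actin of skeletal muscle. It was at 197 CPM in the lowest, 281 in the median and 363 in the highest Ctrl heart, and at 134, 673 and 1386 CPM in the hMut hearts. Of the 9 hMut hearts, 7 lay above every Ctrl heart, hMut 1 lay inside the Ctrl range and hMut 2 lay below it. The log2 fold change was 1.31 (SE 0.35, adjusted p = 0.0385), a 2.47-fold difference. The spread was wider in hMut, with a coefficient of variation of 61.7% against 24.4% in Ctrl. The call ended with sex as a covariate (log2 fold change 1.14, adjusted p = 0.0627), without hMut 6 and 9 (0.87, adjusted p = 0.111) and when any 1 of 12 hearts was left out (every Ctrl heart but Ctrl 4, and hMut 3, 5, 6, 7 and 9). Over the 17 such fits the log2 fold change ran from 1.11 to 1.44, with adjusted p up to 0.0776.

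*Actc1* (ENSMUSG00000068614, chromosome 2), the cardiac α-actin that is the main actin of adult heart muscle, was at 8048, 10158 and 10732 CPM in the lowest, median and highest Ctrl heart and at 8083, 9514 and 10445 CPM in hMut. Each hMut heart lay within the Ctrl range (log2 fold change −0.05, SE 0.07, adjusted p = 0.711). Ctrl 3 alone set the low end of that range. The next lowest Ctrl heart, Ctrl 7 at 9456 CPM, was above hMut 6 (9058 CPM) and hMut 9 (8083 CPM). Set against *Actc1* in the same heart, the 2 actins could be compared free of library size. *Acta1* amounted to 2.05 to 3.62 per 100 *Actc1* in Ctrl, per kb of each gene, with a mean of 2.90 ± 0.557 (SD, n = 8). In hMut it amounted to 1.37 to 18.1 per 100, with a mean of 7.73 ± 5.35 (SD, n = 9), and 7 of 9 hMut hearts exceeded every Ctrl heart. The mean log2 ratio differed by 1.09 (exact two-sided permutation test over 24310 splits, p = 0.0202, adjusted p = 0.121 over the 6 ratios tested), so the ratio did not pass after adjustment. Without hMut 2, the difference was 1.35 (exact permutation test, adjusted p = 0.00653), without hMut 9 it was 0.89 (adjusted p = 0.222, exact permutation test) and without hMut 6 and 9 it was 0.69 (adjusted p = 0.441, exact permutation test).

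*Nppb* (ENSMUSG00000029019) and *Nppa* (ENSMUSG00000041616) lie side by side on the plus strand of chromosome 4, at 148070245 to 148071662 and 148085179 to 148086536. *Nppb* was at 50.02, 174 and 271 CPM in the lowest, median and highest Ctrl heart and at 151, 348 and 849 CPM in hMut. In 5 of 9 hMut hearts (hMut 3, 5, 6, 7 and 9) it was above every Ctrl heart, and the other 4 lay inside the Ctrl range. Its log2 fold change was 1.27 (SE 0.37, adjusted p = 0.0582), and it passed in DESeq2 (adjusted p = 0.0206), in limma-voom (adjusted p = 0.0196) and with sex as a covariate (1.17, SE 0.30, adjusted p = 0.0397). In edgeR it also passed without Ctrl 4, hMut 1, hMut 2 or hMut 8 (1.34 to 1.41, adjusted p from 0.0308 to 0.0497), and it was at 0.79 (adjusted p = 0.178) without hMut 6 and 9.

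*Nppa* was at 35.9, 115 and 164 CPM in the lowest, median and highest Ctrl heart and at 76.3, 217 and 685 CPM in hMut. The hearts above every Ctrl heart were hMut 3, 5, 6, 8 and 9, so hMut 7 was high for *Nppb* alone and hMut 8 for *Nppa* alone. The log2 fold change of *Nppa* was 1.16 (SE 0.41, adjusted p = 0.101), and it passed neither in DESeq2 (adjusted p = 0.0859) nor in limma-voom (0.75, adjusted p = 0.132). It passed in edgeR without hMut 2 (1.28, adjusted p = 0.0465), and without hMut 6 and 9 it was 0.50 (adjusted p = 0.387). *Nppb* stood at 183 ± 95.6 per 100 *Nppa* in Ctrl (SD, n = 8) and 218 ± 89.9 in hMut (SD, n = 9), per kb, and the mean log2 ratio differed by 0.30 (exact two-sided permutation test, p = 0.411).

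The myosin heavy chains lie next to each other on the minus strand of chromosome 14. *Myh6* (ENSMUSG00000040752, 55179378 to 55204384), the fast adult ventricular chain, was at 11774, 15275 and 16003 CPM in the lowest, median and highest Ctrl heart and at 8187, 12160 and 14187 CPM in hMut. Each hMut heart lay below the Ctrl median, and hMut 6, 7 and 9 lay below every Ctrl heart. The overlap came from Ctrl 3 alone, because the next lowest Ctrl heart, Ctrl 4 at 14901 CPM, was above every hMut heart. The log2 fold change was −0.34 (SE 0.10, adjusted p = 0.0601). It passed in DESeq2 (−0.34, adjusted p = 0.00898) and limma-voom (−0.31, adjusted p = 0.00471), and in edgeR without Ctrl 3, the lowest Ctrl heart (−0.38, adjusted p = 0.0383), and without hMut 2 (−0.37, adjusted p = 0.0249).

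*Myh7* (ENSMUSG00000053093, 55208141 to 55232083), the slow chain of the fetal ventricle, was at 241, 390 and 595 CPM in the lowest, median and highest Ctrl heart and at 190, 464 and 1846 CPM in hMut. The upper end of the hMut range was 1 heart, hMut 6, and the next were hMut 9 at 720 and hMut 8 at 621 CPM. The log2 fold change was 0.57 (SE 0.34, adjusted p = 0.284), it was 0.14 (adjusted p = 0.75) without hMut 6 and it was 0.0025 (SE 0.20, adjusted p = 0.997) without hMut 6 and 9. *Myh7* was at 2.10 ± 0.494 per 100 *Myh6* in Ctrl (SD, n = 8) and at 4.32 ± 4.04 in hMut (SD, n = 9), per kb. The highest ratios were 14.1 in hMut 6 and 6.87 in hMut 9, the lowest was 1.05 in hMut 2, and 5 of 9 hMut hearts exceeded the highest Ctrl heart (2.90). The mean log2 ratio differed by 0.66 (exact two-sided permutation test, p = 0.131, adjusted p = 0.262), and by 0.20 without hMut 6 and 9. In both groups *Myh6* stayed the main chain, in each of the 17 hearts.

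**Figure D2:**
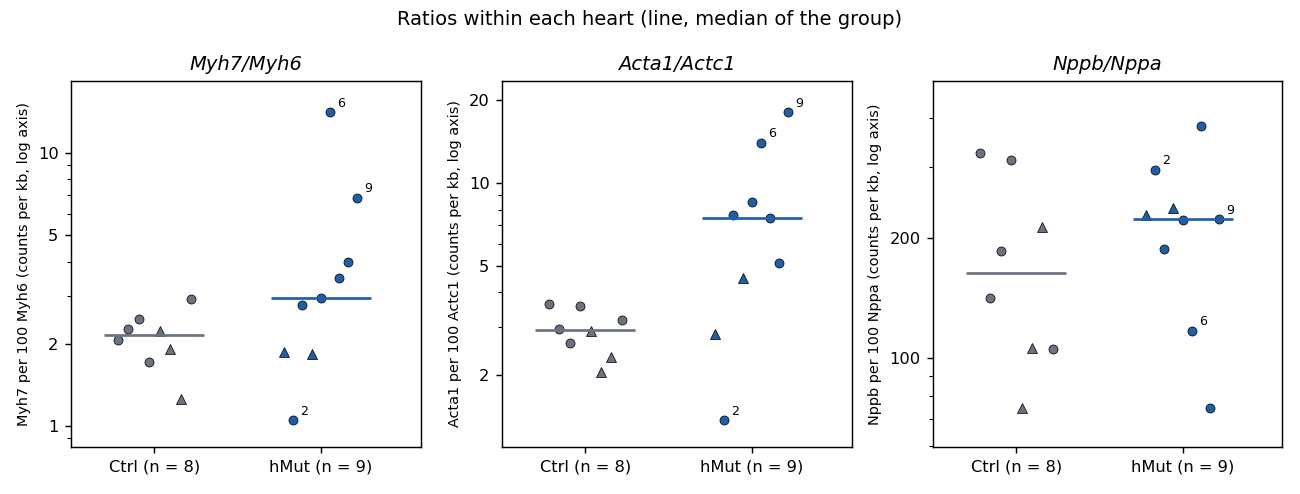
Ratios of 2 genes within each heart, in counts per kb, on log axes: *Myh7* per 100 *Myh6*, *Acta1* per 100 *Actc1* and *Nppb* per 100 *Nppa*, Ctrl in grey (n = 8) and hMut in blue (n = 9), circles male, triangles female, lines at the median. The hMut hearts spread from 1.37 to 18.1 for *Acta1*/*Actc1* and from 1.05 to 14.1 for *Myh7*/*Myh6*, beyond the Ctrl range on both sides.

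Counts of the 2 chains are not fully separate. Of the windows of 100 bases in their reference transcripts, 11.2% of *Myh6* and 11.4% of *Myh7* windows were identical between them, with a longest identical stretch of 245 bases, and the other 8 members shared no such window with another gene. The treatment of reads with several matches and the use of strand in counting are not given in the sources used here. *Myh7* overlaps *Mhrt*, an antisense RNA (chosen after its values were seen), which was at 29.5 to 58.8 CPM in Ctrl and 18.0 to 48.4 in hMut (log2 fold change −0.47, SE 0.17, adjusted p = 0.102). Its highest value was below the lowest of *Myh7*. The antisense genes annotated over *Nppa* and *Myh6* reached at most 0.734 and 8.49 CPM.

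*Acta2* (ENSMUSG00000035783, chromosome 19) was at 38.9, 79.1 and 151 CPM in the lowest, median and highest Ctrl heart and at 71.2, 121 and 138 CPM in hMut. The groups overlapped, with no hMut heart outside the Ctrl range (log2 fold change 0.49, SE 0.23, adjusted p = 0.185). With sex as a covariate the log2 fold change was 0.67 (SE 0.19, edgeR adjusted p = 0.0632). It was 0.92 in male hearts alone (edgeR adjusted p = 0.0528) and 0.053 in female hearts alone (edgeR adjusted p = 0.94), so none of these passed. *Acta2* is made by smooth muscle and by activated fibroblasts. Of 14 smooth muscle and pericyte markers, *Pdgfrb* rose (log2 fold change 0.24, adjusted p = 0.0442) and *Smtn* fell (−0.36, adjusted p = 0.0174), and *Abcc9* was at −0.27 (adjusted p = 0.0838); the median was 0.11, and their summed level was 1575 to 1804 CPM in Ctrl and 1197 to 1813 in hMut. Of 15 tested fibroblast markers (16 listed), 4 rose: *Meox1*, a transcription factor of activated fibroblasts (1.09, adjusted p = 0.0174), *Cilp* (2.13, adjusted p = 0.0322), *Comp* (2.23, adjusted p = 0.0383) and *Ltbp2* (2.33, adjusted p = 0.0403), beside 3.48% of all tested genes. At an unadjusted p under 0.05, 13 of the 15 were higher and 0 lower, beside 14.5% and 11.3% of all genes. DESeq2 called 7 higher and limma-voom 5, beside 6.49% and 7.26% of all genes. *Comp* and *Ltbp2* were not among those called by limma-voom. The fibroblast markers summed to 978 to 1131 CPM in Ctrl and 949 to 2514 in hMut, with a median log2 fold change of 0.52 and no gene of the list at the floor of 3 counts in all libraries, and their part in the members' values was not tested. Without hMut 6 and 9, and also with sex as a covariate, 1 of the 4 (*Meox1*) kept its call and *Pdgfrb* lost its call. In bulk tissue, fewer cells of a type and less RNA per cell cannot be told apart.

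*Myl4* (ENSMUSG00000061086, chromosome 11), the light chain of embryonic muscle and adult atrium, had 38 to 94 counts in Ctrl and 45 to 92 in hMut, or 1.14 to 2.34 and 1.22 to 2.27 CPM (log2 fold change 0.14, SE 0.18, adjusted p = 0.635). *Myl7* (ENSMUSG00000020469), the other atrial light chain, had 0 to 9 counts in Ctrl and 0 to 19 in hMut. *Tnni1* (ENSMUSG00000026418), the troponin I of fetal heart, had 0 to 13 counts in Ctrl and 1 to 8 in hMut. Both groups of *Myl7* and *Tnni1* reach down to the floor of 3 counts, so no change was detectable at this depth, and floors cover counting error only. Against their adult partners *Myl3*, *Myl2* and *Tnni3*, the ratios of *Myl4* (adjusted p = 0.262), *Myl7* (adjusted p = 0.328) and *Tnni1* (adjusted p = 0.459) did not pass the exact permutation test, and they rest on these few counts.

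The members did not move as a block within a heart. Of the 8 tested members, 4 were above every Ctrl heart and 1 (*Myh6*) was below in hMut 6 and hMut 9. Next came hMut 3 and 5 with *Nppa*, *Nppb* and *Acta1* above, hMut 8 with *Nppa*, *Myh7* and *Acta1*, hMut 7 with *Nppb* and *Acta1* above and *Myh6* below, and hMut 4 with *Acta1* alone. All 8 members of hMut 1 lay inside the Ctrl range, and hMut 2 lay inside it or, for *Myh7* and *Acta1*, below it. The share of all tested genes outside the Ctrl range was not counted per heart. These counts therefore cannot be read as particular to the members. In the limma-voom fit, which weights each library by its spread over all genes, hMut 6 (0.166) and hMut 9 (0.299) had the lowest weights, and the other hearts had 0.661 to 1.90.

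**Figure D3:**
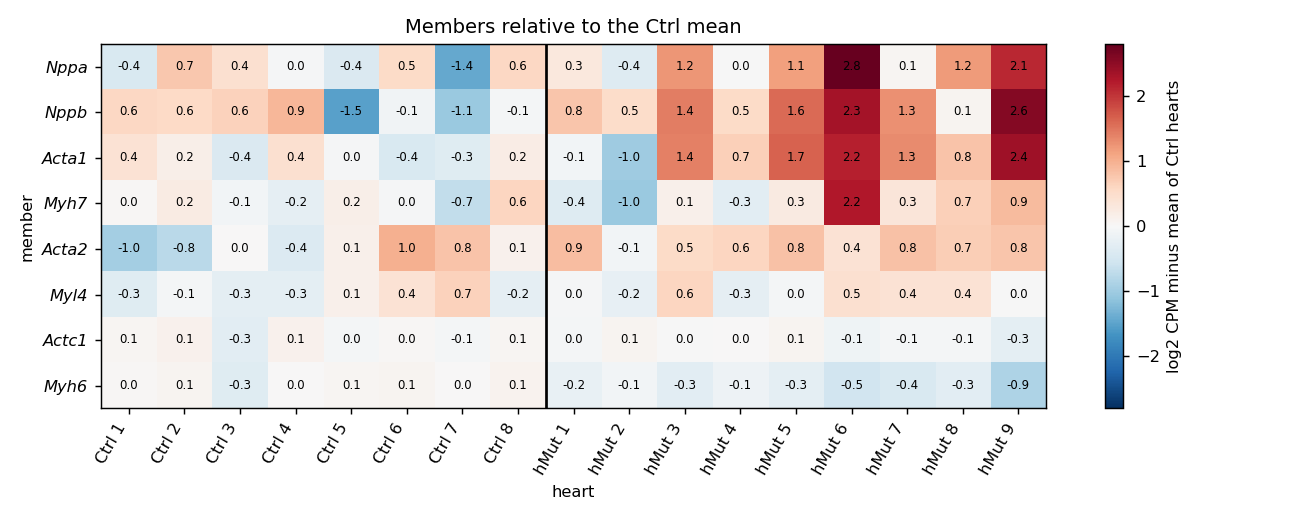
Log2 CPM of each tested member minus the mean of the 8 Ctrl hearts (colour and printed value), with members as rows and the 17 hearts as columns, Ctrl left and hMut right of the line. The hMut hearts 6 and 9 hold the strongest colours for *Nppa*, *Nppb* and *Acta1*, hMut 1 and 2 stay near or below the Ctrl mean for *Acta1*, and *Actc1* is near 0 throughout.

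As a description of likeness between members, residuals of log2 CPM after removal of the group means were correlated over the 17 hearts, which share depth and library composition across genes. Sex was not removed, so differences between male and female hearts are part of these values. *Nppa* and *Myh7* were the most alike among *Nppa*, *Nppb*, *Myh7* and *Acta1* (Pearson r = 0.848, 0.761 without the 2 hearts farthest from the *Nppa* median). *Myh7* and *Acta1* had r = 0.764, but 0.589 without the 2 hearts farthest from the *Myh7* median and 0.622 without those farthest from the *Acta1* median, so their place in the order rests on a few hearts. *Acta1* had r = 0.659 with *Nppa* and 0.639 with *Nppb*, *Nppa* and *Nppb* had r = 0.658, and *Nppb* and *Myh7* had r = 0.476. Rank correlations were 0.762 for *Nppa* with *Myh7*, 0.564 for *Myh7* with *Acta1* and 0.463 for *Acta1* with *Nppa*. They were 0.679 for *Acta1* with *Nppb*, 0.598 for *Nppa* with *Nppb* and 0.341 for *Nppb* with *Myh7*. *Myh6* ran the other way, with r between −0.622 and −0.530. By rank correlation it was at −0.591 with *Nppb*, −0.544 with *Acta1* and −0.338 with both *Nppa* and *Myh7*. Among 13628 genes with a mean of at least 1 CPM, the 3 most like *Nppb* were *Rcan1* (0.947), an inhibitor of calcineurin, *Tnfrsf12a* (0.936), a receptor of the TNF family, and *Ppp1r3c* (0.936), which targets a phosphatase to glycogen. The 3 most like *Nppa* were the ETS factor *Etv5* (0.918), the matrix gene *Comp* (0.877) and the protease inhibitor *Timp2* (0.871). The 3 most like *Myh7* were *Trim47* (0.952), *Ccdc80* (0.943) and *Esyt1* (0.932). The 3 most like *Acta1* were *Plpp2* (0.949), the glycyl-tRNA synthetase *Gars* (0.946) and the zinc transporter *Slc30a4* (0.936). All of these are the highest values picked from many genes. Without the 2 hearts farthest from the median of the member, they ran from 0.796 (*Esyt1* with *Myh7*) to 0.948 (*Rcan1* with *Nppb*). *Rcan1*, like *Nppb*, was lower in each female Ctrl heart (at most 83.2 CPM) than in each male Ctrl heart (at least 86.0 CPM).

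By *Xist* and Y-linked genes, which were used to set the sex of each library, there were 3 female and 5 male Ctrl hearts and 2 female and 7 male hMut hearts. *Nppb* differed most with it. Female Ctrl hearts had 50.02 to 134 CPM and male Ctrl hearts 138 to 271, without overlap. Both female hMut hearts (207 and 247 CPM) were above every female Ctrl heart, and 5 of 7 male hMut hearts were above every male Ctrl heart. Beside condition, *Nppb* was higher in males by 1.15 on the log2 scale (unadjusted p = 0.00352, adjusted p = 0.206 over all genes in edgeR), and this did not pass. *Acta2* ran the other way, with 38.9 to 82.1 CPM in male and 83.0 to 151 CPM in female Ctrl hearts, and 6 of 7 male hMut hearts were above every male Ctrl heart. *Acta1* was above every Ctrl heart of its sex in 6 of 7 males and 1 of 2 females. The change with genotype did not differ between the sexes for any tested member past the threshold (interaction in edgeR, adjusted p from 0.994 to 0.995, lowest unadjusted p = 0.00287 for *Myl4* and 0.0326 for *Acta2*). With male hearts alone 0 members passed in edgeR, and with female hearts alone *Nppb* passed (1.43, adjusted p = 0.0313).

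**Figure D4:**
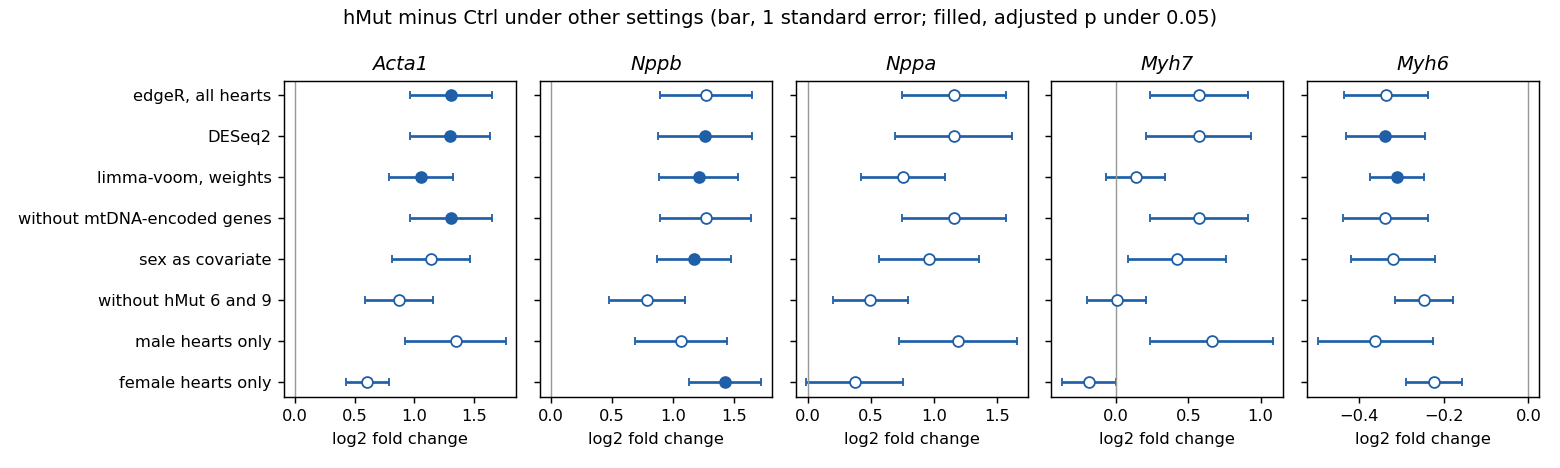
Log2 fold change (hMut minus Ctrl) of *Acta1*, *Nppb*, *Nppa*, *Myh7* and *Myh6* under 8 settings, as points with bars of 1 standard error; filled points have an adjusted p under 0.05. *Acta1* is filled under 4 of the 8 settings and *Nppb* under 4, *Myh6* under 2, and *Nppa* and *Myh7* under 0.

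*Nppa*, *Myl4* and *Myl7* are also atrial genes, so the other atrial markers stand beside them. *Sln*, sarcolipin, had 0 to 6 counts in Ctrl and 0 to 11 in hMut libraries, and *Mybphl* had 0 to 12 and 0 to 6. With *Myl7* at 0 to 19, *Sln*, *Mybphl* and *Myl7* were near the floor of 3 counts in both groups. *Myl4* was above it, with 38 to 94 counts in Ctrl and 45 to 92 in hMut. The 3 hearts with the highest *Nppa*, hMut 6, 9 and 3, had 0, 0 and 11 counts of *Sln*, 2, 2 and 6 of *Mybphl*, and 8, 7 and 4 of *Myl7*, whose Ctrl median was 1.5 counts. A further atrial gene is *Bmp10*, a secreted ligand of the BMP family that adult mice make mainly in the right atrium. It had 3 to 16 counts in Ctrl and 22 to 1116 in hMut, or 0.0817 to 0.371 and 0.605 to 25.2 CPM, and each of the 9 hMut hearts was above all 8 Ctrl hearts (log2 fold change 5.58, SE 0.63, adjusted p = 3.25e-05). Of the 10 tested atrial genes of 12 listed, 1 rose and 0 fell, beside 3.48% and 1.14% of all tested genes, with a median of −0.08. *Kcnj5* (−0.45, adjusted p = 0.0687) and *Dkk3* (1.04, adjusted p = 0.12) came next by p. Without hMut 2, edgeR called *Bmp10*, *Dkk3* and *Pam* higher and *Kcnj5* lower, beside 1128 higher and 664 lower of all 16136 genes tested. The list summed to 907 to 1200 CPM in Ctrl and 958 to 1298 in hMut. With the mean of these markers as a covariate 0 members passed in edgeR (*Acta1* 1.02, adjusted p = 0.665), but the calls over all genes also went from 564 higher and 185 lower to 4 and 1, so this count says nothing about the members. With *Bmp10* left out of the covariate 0 members passed (*Acta1* 1.04, adjusted p = 0.0951), beside 338 higher and 97 lower calls over all genes.

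**Figure D5:**
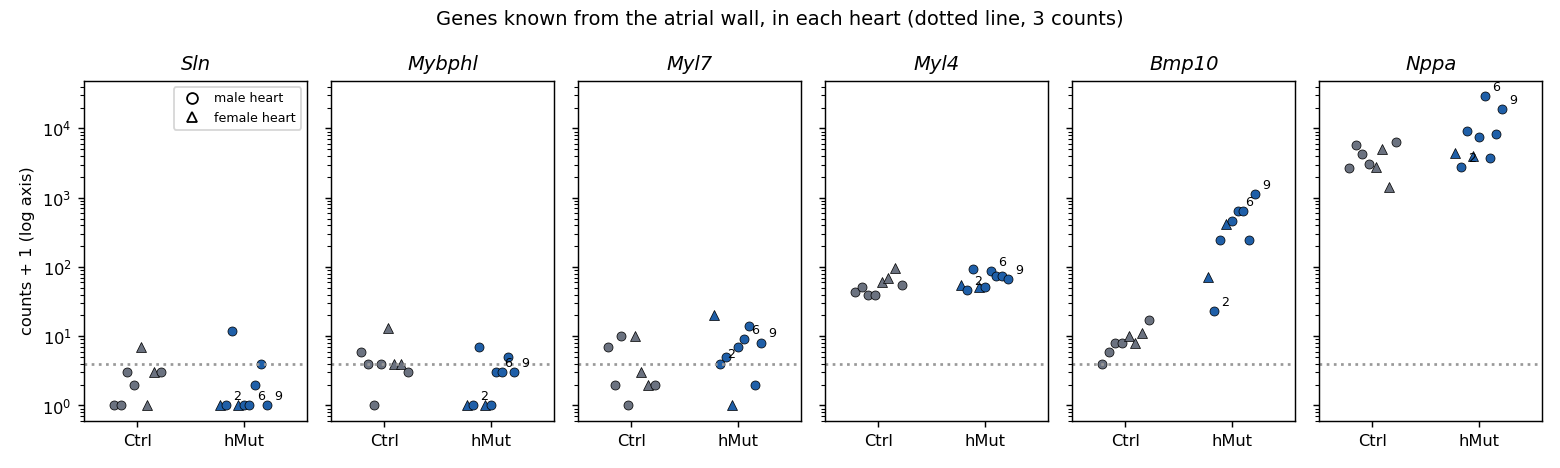
Counts plus 1 on a log axis in each heart for 6 genes known from the atrial wall, Ctrl in grey (n = 8) and hMut in blue (n = 9), circles male, triangles female; the dotted line is at 3 counts. *Sln*, *Mybphl* and *Myl7* lie near the line in both groups, *Bmp10* separates the groups in full, from 3 to 16 counts in Ctrl to 22 to 1116 in hMut, and *Nppa* overlaps.

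The receptors, processing enzymes and targets of the natriuretic peptides gave 0 calls in edgeR among 13 tested genes of 14 (0 higher and 3 lower at an unadjusted p under 0.05), with a median of −0.04. Leading by p were *Npr2*, the receptor of C-type peptide (−0.18, adjusted p = 0.0635), *Corin*, the protease that cuts the ANP precursor (−0.30, adjusted p = 0.0726), and *Mme*, neprilysin (−0.35, adjusted p = 0.184). DESeq2 and limma-voom each called *Npr2* and *Corin* lower, beside 3.3% and 5.59% of all genes. *Nppc* had at most 4 counts in any heart.

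Among 12 adult ventricular sarcomere genes edgeR gave 0 calls (0 higher and 6 lower at an unadjusted p under 0.05), with a median of −0.14. Of the 12 fold changes 11 were negative, and the exception was *Des*, desmin (0.12, chosen after its value was seen). *Tnni3*, adult troponin I, was at 2803 to 3751 CPM in Ctrl and 1629 to 3660 in hMut (−0.43, adjusted p = 0.0629). *Tnnt2* (−0.24, adjusted p = 0.0934), *Myl2* (−0.26, adjusted p = 0.122) and *Myl3* (−0.24, adjusted p = 0.179) were also negative. DESeq2 called 2 lower (*Tnni3* and *Tnnt2*) and limma-voom 4, beside 3.3% and 5.59% of all genes. The 10 cardiomyocyte markers and 8 ventricular markers gave 0 calls in edgeR (5 and 3 lower at an unadjusted p under 0.05, beside 11.3% of all genes). Each of their fold changes was negative, with medians of −0.19 and −0.20. These lists are not separate from the sarcomere list. *Tnnt2*, *Tnni3*, *Ttn*, *Actn2*, *Mybpc3* and *Tnnc1* are also cardiomyocyte markers here, and *Myl2* and *Myl3* are also ventricular markers. The cardiomyocyte marker *Ckmt2* is also an adult metabolic isoform below. *Pln* led the first (−0.35, adjusted p = 0.0689) and *Lbh* the second (−0.32, adjusted p = 0.07). DESeq2 called 3 and 1 of them lower and limma-voom 4 and 2, beside the same 3.3% and 5.59% of all genes. Their summed level was 21703 to 24771 CPM in Ctrl and 16603 to 24786 in hMut for the cardiomyocyte list, and 11678 to 14389 and 7885 to 13740 for the ventricular one, and their part in the members' values was not tested.

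Other skeletal and developmental muscle isoforms were tested beside *Acta1*. Of 19 listed, 10 were tested, 0 rose in edgeR, DESeq2 or limma-voom (2 at an unadjusted p under 0.05 in edgeR), and 2 fell in edgeR: *Myh7b*, a slow myosin (−0.64, SE 0.13, adjusted p = 0.00812), and *Tnnt1*, slow skeletal troponin T (−0.48, SE 0.13, adjusted p = 0.0381). *Myh7b* was at 64.8 to 85.7 CPM in Ctrl and 30.5 to 68.1 in hMut, and 8 of 9 hMut hearts were below every Ctrl heart. *Mybpc2* was at −0.46 (adjusted p = 0.0609), and the median over the list was 0.04. The call of *Tnnt1* ended with sex as a covariate. Of all tested genes, 1.14% were called lower in edgeR. The embryonic and perinatal myosins *Myh3* and *Myh8* had at most 4 and 20 counts and were not tested.

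Of 29 tested regulators of the program (30 listed), edgeR called 0 (2 higher and 9 lower at an unadjusted p under 0.05), with a median of −0.09. *Rcan1*, a target and inhibitor of calcineurin, was at 69.7 to 174 CPM in Ctrl and 105 to 387 in hMut (0.84, SE 0.27, adjusted p = 0.0728). *Mef2c* (−0.19, adjusted p = 0.0689) and *Gata6* (−0.22, adjusted p = 0.105), transcription factors of heart muscle, were lower in value. DESeq2 called *Rcan1* higher and *Mef2c* lower, beside 6.49% higher and 3.3% lower of all genes. In limma-voom 2 were called higher and 5 lower, beside 7.26% and 5.59% of all genes.

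Of 8 fetal metabolic isoforms 2 rose in edgeR, beside 3.48% of all tested genes, and the median log2 fold change was 0.15. The 2 were the glucose transporter *Slc2a1* (0.81, SE 0.16, adjusted p = 0.00604) and the platelet phosphofructokinase *Pfkp* (0.87, SE 0.20, adjusted p = 0.0174). *Slc2a1* was at 13.0 to 20.5 CPM in Ctrl and 16.3 to 39.4 in hMut and lay above every Ctrl heart in 7 of 9 hMut hearts. *Pfkp* was at 45.8 to 65.8 and 58.8 to 204 CPM and lay above in 8 of 9. *Eno1* was at 0.19 (adjusted p = 0.151). Both calls stood without hMut 6 and 9, with sex as a covariate, in DESeq2 and in limma-voom. DESeq2 called 6.49% and limma-voom 7.26% of all genes higher. Of the 8 adult counterparts edgeR called 0. At an unadjusted p under 0.05, 0 were higher and 5 lower, beside 14.5% and 11.3% of all genes. Each fold change was negative, with a median of −0.25 and with *Eno3* (−0.35, adjusted p = 0.0786), *Pfkm* (−0.24, adjusted p = 0.114) and *Cpt1b* (−0.34, adjusted p = 0.117) leading. DESeq2 called 1 lower and limma-voom 4, beside 3.3% and 5.59% of all genes.

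Among cell types that could add RNA, endothelial markers gave 1 call upward of 8 in edgeR (*Kdr*, 0.39, adjusted p = 0.0407), beside 3.48% of all tested genes. They summed to 837 to 1040 CPM in Ctrl and 913 to 1222 in hMut, with a median of 0.10. *Kdr* lost its call without hMut 6 and 9. Immune cell markers gave 0 calls of 14 in edgeR, DESeq2 and limma-voom (5 higher and 0 lower at an unadjusted p under 0.05), with *Cd3e* (2.08, adjusted p = 0.122), *Csf1r* (0.42, adjusted p = 0.135) and *Nkg7* (2.15, adjusted p = 0.137) first by p. The median was 0.52, and they summed to 69.7 to 144 CPM in Ctrl and 79.0 to 381 in hMut. The members' values were not tested against them.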

How the data were processed

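The authors isolated RNA from hearts, enriched polyadenylated RNA, trimmed reads with fastp, mapped to GRCm39 by HISAT2 2.2.1 and summarised per gene by featureCounts 2.0.6; read length, strand setting and treatment of multiple matches are not given in the sources used here. The deposited values are raw counts for 56748 genes. Groups follow the labels (9 hMut, 8 Ctrl), and the sources do not say how the mice are related, so p-values measure the spread between these hearts. Counts were tested with the edgeR 4.0.16 (R 4.3.3) quasi-likelihood test after TMM scaling and filterByExpr (16195 genes), with condition as the only term, Benjamini-Hochberg adjustment over all tested genes and a threshold of 0.05. The test was checked on simulated counts. CPM use TMM-scaled totals. Counts per kb use the gene length in the deposited table. Ratios added 0.5 counts to both genes, and their log2 values were compared by exact permutation over 24310 splits. DESeq2 1.42.0, limma 3.58.1, other scalings and filters, covariates and left-out hearts were alternatives.

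The members and gene lists were chosen with earlier results of these data known. For every list, the edgeR shares over all tested genes were 3.48% higher and 1.14% lower past the adjusted threshold. At an unadjusted p under 0.05 they were 14.5% and 11.3%. Past the adjusted threshold the shares were 6.49% and 3.3% in DESeq2, and 7.26% and 5.59% in limma-voom. The text names the 10 members, the 3 genes of each list with the smallest adjusted p, ratio partners, *Polg*, and the 3 genes most like *Nppa*, *Nppb*, *Myh7* and *Acta1*; other genes were chosen after their values were seen.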

Additional observations from a re-analysis of the deposited data

Results flagged for a closer look

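In 26 tests of whether the highest or lowest heart of a group stood far from the rest, of which chance flags about 5%, 3 did so. The log2 CPM of *Myh6* in Ctrl 3 was 13.52 and that of *Actc1* in the same heart was 12.97, both the lowest of the 8 Ctrl hearts. The log2 CPM of *Acta2* in hMut 2 was 6.15, the lowest of the 9 hMut hearts.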

How the results depend on the processing

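The count of members past the threshold was 1 higher and 0 lower. It was 2 higher and 1 lower in DESeq2 and in limma-voom, and 0 higher with the atrial markers as covariate, with those without *Bmp10*, with the replicate block, without hMut 6 and 9 and with male hearts only (the last, and the markers without *Bmp10*, were chosen after seeing the data). With 1 heart left out the counts ran from 0 to 3 higher and from 0 to 1 lower, with 3 higher and 1 lower without hMut 2. *Actc1* reversed to 0.0047 and *Acta2* to −0.13 and *Myl4* to −0.069 with the atrial markers as covariate. In female hearts only, *Myh7* reversed to −0.19, *Actc1* to 0.0025 and *Myl4* to −0.58. In male hearts only, the *Nppb*/*Nppa* difference reversed to −0.033. With 1 heart left out the *Acta1*/*Actc1* difference ran from 0.89 to 1.35. RLE and upper-quartile scaling, the other filters and the removal of mtDNA-encoded genes left *Acta1* as the only call among the members (adjusted p from 0.0371 to 0.0433). The cause of these differences was not tested.

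The replicate numbers did not pair the hearts: hMut and Ctrl hearts of the same number had correlations of residuals from −0.225 to 0.339, 1 of 8 over 0.1, and 1 of 8 hMut hearts correlated best with its own number. With the replicate block *Acta1* was at 0.89 (edgeR adjusted p = 0.257), and calls over all genes went from 564 to 169 higher and from 185 to 26 lower. The *Acta1*/*Actc1* and *Myh7*/*Myh6* differences in pairs were 0.89 and 0.53. No Ctrl heart shares the number of hMut 9, the heart with the highest *Acta1*, so the block takes it out of the contrast. The 2 ratio differences are the same as those without hMut 9 and no pairing. Depth limits *Tnni1*, *Myl7*, *Sln* and *Mybphl*, each at 20 counts or fewer in any heart.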
